A study of Mus musculus with 2 samples.

Results

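The genes described here are the chemokine and chemokine receptor genes of the mouse. They were chosen by name from RefSeq genes on GRCm38.p6 (the mm10 chromosomes), as protein-coding genes whose symbols start with Ccl, Cxcl, Ccr, Cxcr or Ackr and a number, together with Cx3cl1, Cx3cr1, Xcl1 and Xcr1. There were 62 such genes, 1 of them (Ccl21c) taken to lie on a scaffold from its coordinates, and the annotation held 21774 protein-coding genes on the chromosomes. The 62 were 39 ligands, 19 signalling receptors and 4 atypical receptors. The naming rule used no measured value, but it was set with earlier results of these data known. A gene was given the deposited score at the position nearest to its midpoint, at most 100 kb away, and 58 of the 62 had one.

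The study measured when DNA replicates in 46C, an embryonic stem cell line derived from 129P2/Ola mice, with 1 library from early and 1 from late S phase. All cells were cultured with leukemia inhibitory factor and given 50 µM bromodeoxyuridine (BrdU), a thymidine analogue, for 2 h, then sorted by DNA content, and the BrdU-labelled DNA of 10000 cells was immunoprecipitated, amplified and sequenced. The authors set early against late in 1 score per position, smoothed over 300 kb, so every value below belongs to both libraries together. Scores above 0 were taken as early, because the name given to the table puts early first, and this reading is an assumption. No source used here states its zero point, scaling or log base, so a score is not read as a fold. This was 1 cell line with no replicate libraries and no counts, so no error between experiments, no read depth and no test can be given. The score measures copied DNA and not RNA, so whether these genes are transcribed, and whether the cells carry stem cell markers, was not measured.

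Chemokines are small secreted proteins that attract cells, mostly leukocytes, along a gradient. They are grouped by the spacing of the first cysteines into CC, CXC, XC and CX3C ligands, and they act on G protein-coupled receptors named after the same groups. Atypical receptors bind chemokines without the usual G protein signalling and clear or shape the gradient. Many ligand genes arose by duplication and still sit beside each other, as do many receptor genes. Replication timing is a property of large chromosome domains, and in many cell types early domains are rich in active genes.

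Promoter sequences are shown for 7 members because they sit on the contrasts described below: neighbouring CXC ligand genes with low and with high scores, and a ligand and its receptor that were both below 0. Each is the 250 bases before the annotated gene start, 5′ to 3′ on the strand of the gene, from RefSeq on GRCm38.p6. In Cxcl1, Cxcl2 and Cxcl3 (late) and in Cxcl9 and Cxcl10 (early), capitals mark matches to a form of the NF-kB site (GGGA and TTTCC with 1 free base between them), to a core of the interferon response element (GAAA and GAAA with 2 free bases between them), or to the TATA box (TATAAA). In Cxcl12 and Cxcr4 capitals mark CG dinucleotides.
Cxcl1 (chr5:90890995-90891244, plus strand): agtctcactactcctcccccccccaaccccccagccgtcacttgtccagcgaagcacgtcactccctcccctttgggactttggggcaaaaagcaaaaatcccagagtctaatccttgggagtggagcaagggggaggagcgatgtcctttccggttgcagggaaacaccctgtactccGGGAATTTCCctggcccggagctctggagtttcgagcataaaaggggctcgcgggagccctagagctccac
Cxcl2 (chr5:90903649-90903898, plus strand): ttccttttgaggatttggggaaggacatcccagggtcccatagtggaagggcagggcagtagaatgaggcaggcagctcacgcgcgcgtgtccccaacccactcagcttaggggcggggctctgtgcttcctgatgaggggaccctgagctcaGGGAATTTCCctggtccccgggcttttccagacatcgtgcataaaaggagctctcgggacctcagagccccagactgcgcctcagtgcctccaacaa
Cxcl3 (chr5:90785851-90786100, plus strand): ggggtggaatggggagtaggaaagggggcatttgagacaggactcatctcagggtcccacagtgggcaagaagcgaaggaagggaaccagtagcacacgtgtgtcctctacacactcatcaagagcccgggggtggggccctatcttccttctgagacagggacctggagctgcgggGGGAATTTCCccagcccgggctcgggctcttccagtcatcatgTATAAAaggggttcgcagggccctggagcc
Cxcl9 (chr5:92328080-92328329, minus strand): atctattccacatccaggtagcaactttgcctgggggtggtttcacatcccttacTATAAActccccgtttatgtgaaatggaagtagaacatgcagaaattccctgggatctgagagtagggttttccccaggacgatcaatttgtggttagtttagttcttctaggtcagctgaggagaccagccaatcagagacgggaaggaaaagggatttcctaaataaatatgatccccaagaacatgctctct
Cxcl10 (chr5:92348890-92349139, minus strand): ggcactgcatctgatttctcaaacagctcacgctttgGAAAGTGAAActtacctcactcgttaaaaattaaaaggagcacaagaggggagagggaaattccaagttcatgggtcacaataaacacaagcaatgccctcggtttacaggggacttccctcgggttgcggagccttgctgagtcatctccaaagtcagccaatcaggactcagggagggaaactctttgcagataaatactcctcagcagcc
Cxcl12 (chr6:117168285-117168534, plus strand): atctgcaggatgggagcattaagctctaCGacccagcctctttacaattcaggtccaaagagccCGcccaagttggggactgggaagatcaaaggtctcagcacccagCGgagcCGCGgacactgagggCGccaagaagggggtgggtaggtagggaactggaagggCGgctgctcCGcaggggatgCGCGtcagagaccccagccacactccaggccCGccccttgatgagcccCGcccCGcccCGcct
Cxcr4 (chr1:128592300-128592549, minus strand): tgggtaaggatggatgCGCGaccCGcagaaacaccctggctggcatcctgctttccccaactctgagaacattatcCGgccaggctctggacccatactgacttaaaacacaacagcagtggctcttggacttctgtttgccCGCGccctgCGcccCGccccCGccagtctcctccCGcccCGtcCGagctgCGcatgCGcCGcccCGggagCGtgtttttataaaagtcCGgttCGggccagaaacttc

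Taken as a whole the family lay close to other genes in its share of early members. The share was lower in its ligand genes than in its receptor genes, a difference that was not tested. Of the 58 genes with a value 39 (67.2%) were above 0, and of all 21225 protein-coding genes with a value 73.5% were above 0, so the share was near the background and is no result about the family. With the zero moved to the autosomal median of -0.30, 42 of the 58 lay above it, where 78.5% of protein-coding genes did. The median score was 0.41 (95% order-statistic interval over genes 0.12 to 0.99), and it was 1.02 in the other 21167 protein-coding genes. Of the 35 ligand genes 19 were above 0, with a median of 0.12 (-1.002 to 0.99). This median and the lower limit of the family's interval are the value shared by Ccl19 and Ccl21a. The upper limit of both intervals is the value of Ccl27a. All 3 genes lie in a poorly covered region of chromosome 4, described below, and their values are uncertain. Without that cluster, left out after the data were seen, 36 of 54 members were above 0, with a median of 0.50. Of the 23 receptor genes, atypical ones included, 20 were above 0, with a median of 0.49 (0.19 to 1.45). Without the receptor cluster at the end of chromosome 9, described below, 12 of 15 were above 0 and the median was 1.41. The intervals cover the spread between genes, which share chromosome regions, and no experimental error.

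The low end of the family was made of ligand genes and the middle mostly of receptor genes. All 12 members below -1 were ligand genes, 20.7% of the family, where 9.59% of protein-coding genes were below -1. Of these 12, 11 lay in only 2 clusters, on chromosomes 5 and 11, and the other was Cxcl12. Within 0.5 of 0 lay 14 members (24.1%), against 17.7% of protein-coding genes, and 7 of the 14 were the neighbouring receptor genes from Ccr9 to Ccr2 on chromosome 9. Above 1 were 21 members (36.2%), where the background was 50.5%. The highest of all were the receptor genes Ccr7 (1.85), Cxcr5 (1.82), Ccr10 (1.77) and Ccr4 (1.73). Ccr7 was above 98.0% of protein-coding genes and Ccr4 above 92.2%. Counted as places and not as genes, with members within 1 Mb of each other joined, the family had 29 units, of which 20 were above 0. The joined ligand genes made 15 units with 9 above 0, and the joined receptor genes 14 units with 11 above 0.

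**Figure D1:**
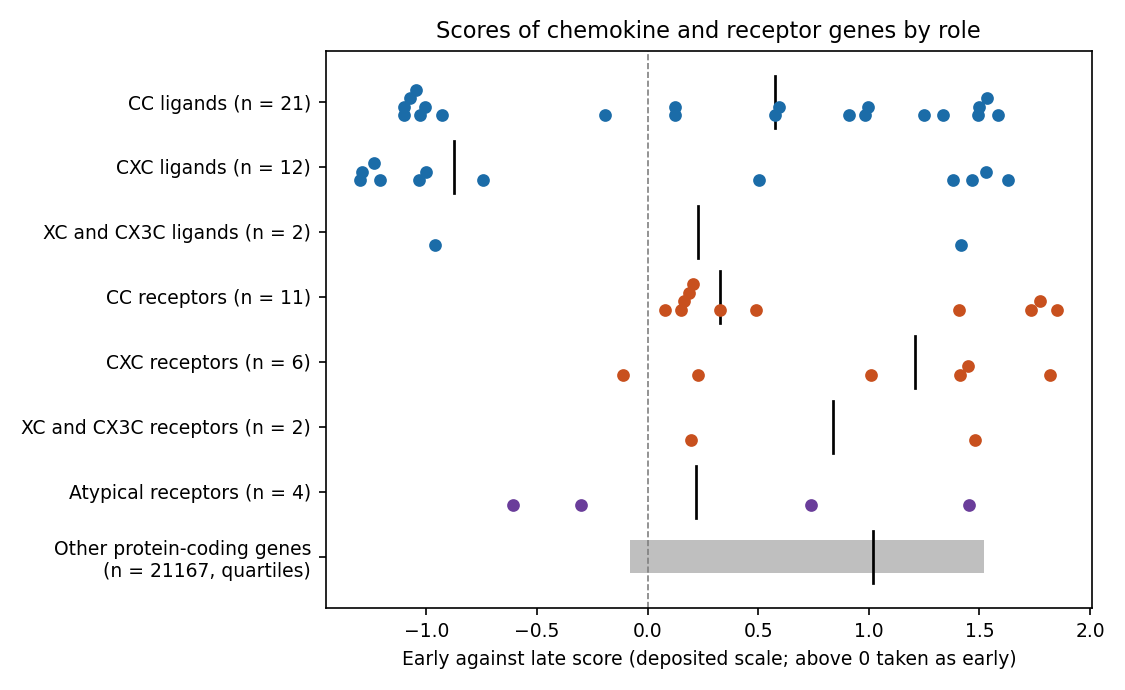
Early against late score (horizontal axis, deposited scale) of each of the 58 chemokine and receptor genes with a value, by role, with a vertical line at each median. The grey bar spans the quartiles of the other 21167 protein-coding genes. CXC ligand genes split into 7 below 0 and 5 above, and all 11 CC receptor genes lie above 0.

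The inflammatory CC ligand genes of chromosome 11 were split between a late and an early cluster. The late one (82035577 to 82179812) held 6 genes in 144 kb. Ccl2, the main attractant of monocytes, had -1.01, Ccl7 had -1.03 and the eotaxin gene Ccl11, an attractant of eosinophils, had -1.05. Ccl12 had -1.10, Ccl8 -1.10 and Ccl1, a ligand of Ccr8, -1.07. All 6 lay within 0.097 of each other, and since the cluster is shorter than the smoothing width they do not give 6 separate measurements. The late run that held them was 1.68 Mb long and had its lowest score, -1.19, at position 82270970. On the lower side the next gene was Asic2, which encodes an ion channel, at -1.05.

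The early cluster of the same chromosome (83525778 to 83664683) lay 1346 kb further along and held 5 genes in 139 kb. Ccl5, which attracts T cells and monocytes, had 1.25, Ccl9 had 0.98 and Ccl6 0.91. The macrophage inflammatory protein genes Ccl3 and Ccl4 had 0.59 and 0.58, and their annotated spans overlap. The 5 scores thus differed by 0.67 along 139 kb, where those of the late cluster differed by 0.097, and were lower with each gene along the chromosome. The lowest point of the profile there, 0.53, was 26.7 kb beyond Ccl4, and 500 kb further on the score was 1.52. Ccl3 and Ccl4 therefore lay in a dip inside an early run of 6.80 Mb whose median was 1.44.

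Between these clusters the profile crossed 0 a single time, at position 82526901, 347 kb beyond Ccl1 and 999 kb before Ccl5. At 300 kb before the crossing the score was -1.09 and at 300 kb after it 1.66. Of the 25 other protein-coding genes between the clusters, the nearest to Ccl1 was Tmem132e (-0.41), and the next was the chaperonin gene Cct6b (1.59). Nearest to Ccl5 was Heatr9 (1.298).

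A similar division was found among the CXC ligand genes of chromosome 5. The late cluster (90759298 to 90905938, 147 kb) held the neutrophil attractant genes Cxcl5 (-1.297), Cxcl3 (-1.24), Cxcl1 (-1.03) and Cxcl2 (-1.002), ligands of Cxcr2, and the lung chemokine gene Cxcl15 (-1.21). Cxcl5 was the lowest of the whole family. Between Cxcl5 and Cxcl3 lie Ppbp (-1.27) and Pf4 (-1.26), platelet chemokine genes that the naming rule leaves out. The growth factor genes Epgn (-0.88), Ereg (-1.06), Areg (-1.21) and Btc (-1.01) beyond Cxcl2 were late too. Cxcl9 and Cxcl10, interferon-induced ligands of Cxcr3 that attract activated T cells, lay 1415 kb away from Cxcl2 (92321331 to 92348889) and had 1.53 and 1.38. Beside them Cxcl11, which encodes another Cxcr3 ligand in humans, had 1.27, but the annotation lists it as a transcribed pseudogene, so it is no member. The crossing of 0, again a single one, was at position 91738855, 833 kb beyond Cxcl2 and 582 kb before Cxcl9. The score was -0.86 at 300 kb before the crossing and 1.34 at 300 kb after it. On the far side of Cxcl10 the profile went below 0 again at position 93348672. Further along, Cxcl13, which draws B cells into lymphoid follicles, was late at -0.74 (95956939 to 95961068). The profile between these places was not complete. The run that held Cxcl13 began only at 95813523, and there was no value at 300 kb on the lower side of the gene.

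**Figure D2:**
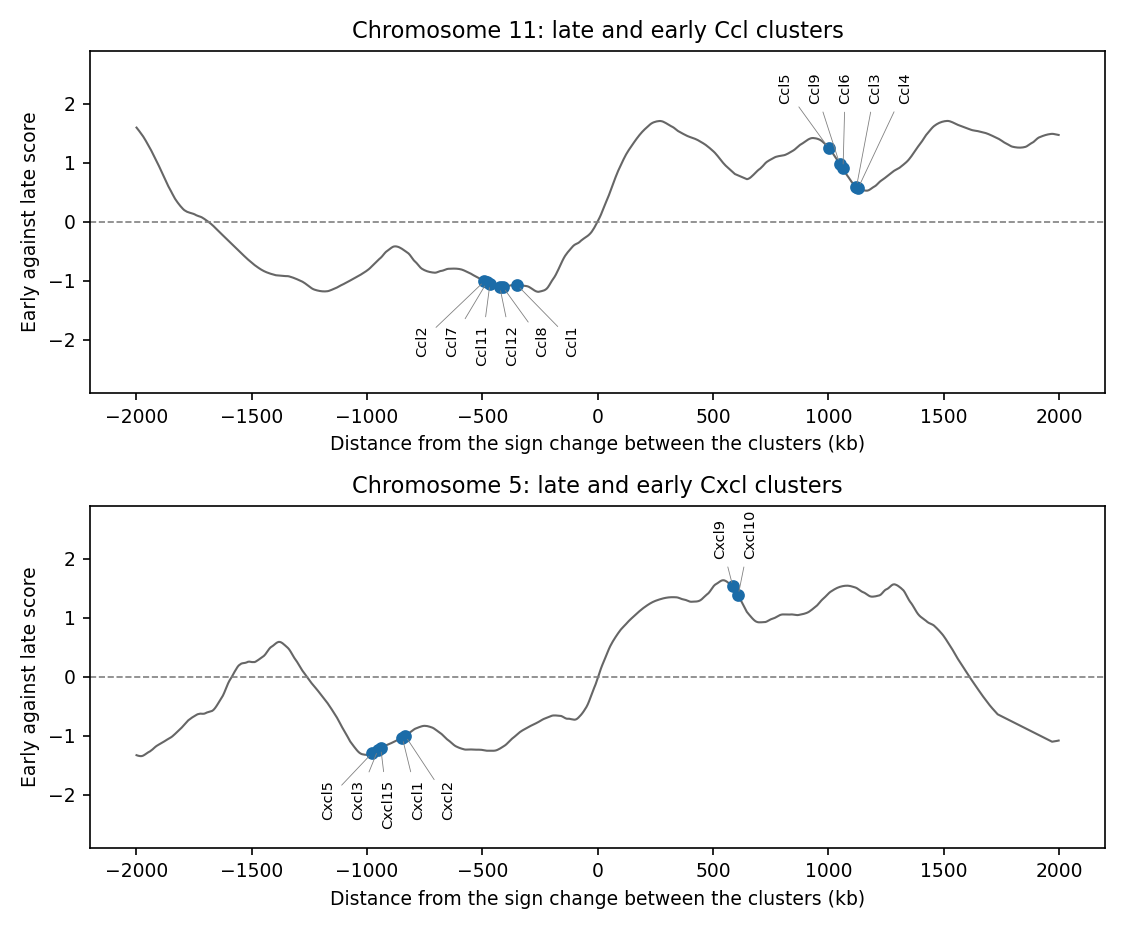
Early against late score (vertical axis) along 2 Mb on each side of the sign change between the late and the early ligand cluster of chromosome 11 (top) and chromosome 5 (bottom), against distance from the sign change in kb. Points are ligand genes at their midpoints. Ccl2 to Ccl1 and Cxcl5 to Cxcl2 lie at -1.002 or lower, while Ccl5 to Ccl4 and Cxcl9 and Cxcl10 lie between 0.58 and 1.53.

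The promoters printed above can be set beside these scores. The NF-kB form, searched on both strands, was found as GGGAATTTCC in Cxcl1, Cxcl2 and Cxcl3, all in the late cluster, beginning 71, 97 and 73 bases before the start. Of 44 member promoters with an entry and a score, the only other match was in the receptor gene Ccr3. Of 17030 protein-coding promoters of the same length 59 (0.346%) held one. Other spellings of the site were not searched, so a promoter without a match may still hold a site. The printed promoter of Cxcl10 holds gggacttccc and gggaaattcc, each a single letter away from the searched form and not counted. The lack of a match in this early gene thus depends on the spelling chosen. Members without a promoter entry, among them Cxcl5 and Ccl2 (late) and Ccl5 (early), were not searched. The interferon response core, also searched on both strands, was found in the early genes Cxcl10 and Cxcl14 and in Ccl19, and in 3.02% of all promoters. TATAAA on the strand of the gene was found in 11 member promoters and in 8.30% of all. Among those 11 were Cxcl3, Cxcl15, Ccl8 and Ccl12 of the late clusters, where it began 30, 27, 32 and 31 bases before the start, and Cxcr4, where it began at 30. In Cxcl9 it began 195 bases before the start. No matches to different motifs overlapped in the member promoters. A match describes letters and is no evidence of binding.

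The remaining clusters of ligand genes were early or gave uncertain values. Ccl22 (1.33), Cx3cl1 (1.42) and Ccl17 (1.496) sit within 66.4 kb on chromosome 8 (94745684 to 94812038). Ccl17 and Ccl22 are ligands of Ccr4 on skin-homing and regulatory T cells, and Cx3cl1 is made as a membrane-tethered chemokine. Ccl26 (1.58) and Ccl24 (1.54), eotaxin genes like Ccl11, lie side by side on chromosome 5 (135560448 to 135573123). Ccl11 and Ccl24, which share the receptor Ccr3, were thus on opposite sides of 0, at -1.05 and 1.54.

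On chromosome 4 the region of the homeostatic ligands Ccl27a, Ccl21 and Ccl19 was poorly covered. Ccl27a, a skin chemokine gene, had 0.99, and Ccl21d had -0.19. Ccl19 and Ccl21a, which guide lymphocytes and dendritic cells into lymph nodes through Ccr7, had the same 0.12 because the same position was nearest to both, 20.1 kb from Ccl19 and 2.16 kb from Ccl21a. The profile had gaps of 110 kb (41786970 to 41897355) and 878 kb (41897355 to 42775585) there. Ccl21b and Ccl27b lay 318 and 122 kb from any position and had no value. Ccl21c, taken to lie on a scaffold, also had none. This region holds near-identical gene copies, how reads matching several copies were treated is not given in the sources used here, and copy number in 129P2/Ola was not analysed here, so these 4 values are uncertain. Ccl28, a mucosal chemokine gene of chromosome 13, lay 146 kb beyond the last position of its chromosome in the table and had no value.

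Single ligand genes covered the whole range. Cxcl16, made as a transmembrane protein, was the highest ligand gene at 1.63 (chromosome 11, 70454389 to 70459984), followed among single genes by Ccl25 of thymus and gut (1.498) and the mucosal ligand gene Cxcl17 (1.47). Cxcl14, a ligand of epithelia, had 0.50 and lay 82.2 kb from the end of its early run, with 1.49 and -0.38 at 500 kb on the lower and upper side of the gene. Ccl20, the ligand of Ccr6, had -0.93. Xcl1, which attracts cross-presenting dendritic cells, had -0.96 in a late run of only 0.408 Mb, with 0.30 and 0.55 at 300 kb on its lower and upper side.

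Cxcl12, which guides stem cells, germ cells and leukocytes in development, was the second lowest member. It had -1.29 at its midpoint (chromosome 6, 117168535 to 117181368), lower than all but 4.26% of protein-coding genes. Its late run was 1.09 Mb long with a median of -1.34. Cxcl12 had a single other protein-coding gene within 500 kb, the fewest of all members with a value. Its receptors, Cxcr4, which signals, and Ackr3, which removes the ligand, had -0.11 and -0.30. Both lay on chromosome 1 close to a sign change, Cxcr4 (128588199 to 128592299) 21.95 kb and Ackr3 (90203980 to 90215724) 37.9 kb away. Around Cxcr4 the score was 1.25 at 300 kb on the lower side and -0.83 at 300 kb on the upper side, and around Ackr3 it was 1.301 and -0.33. When zero was set to the autosomal median, Cxcr4 and Ackr3 moved to 0.19 and 0.0052, so their side of 0 rests on a zero point that is not known. Cxcl12 stayed below, at -0.99.

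Of the 19 signalling receptor genes 18 were above 0, the exception being Cxcr4, where 73.5% of all protein-coding genes were. The 18 are not separate places, because neighbours share runs. A large part of them sits on chromosome 9, which held 14 of the 23 receptor genes. Towards its far end the 7 genes Ccr9, Cxcr6, Xcr1, Ccr1, Ccr1l1, Ccr3 and Ccr2 lie within 342 kb (123767211 to 124109140). Ccr9, which brings T cells to the gut, had 0.33, Cxcr6 had 0.23, Xcr1 0.20, Ccr1 0.21 and Ccr1l1 0.19. The eosinophil receptor gene Ccr3 had 0.17 and the monocyte receptor gene Ccr2 0.15. The scores of these 7 genes were thus all early but close to 0 and differed by 0.18 at most, which is less than the 0.67 of the early ligand cluster of chromosome 11. The run containing them (122649731 to 124149954) had a median of 0.51 and ended with the last position of the chromosome in the table, at 0.017. The profile therefore stops close to the cluster on its upper side. What the end of the data does to these 7 smoothed values was not tested.

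Other receptor genes of chromosome 9 were clearly above 0. Cx3cr1, found on monocytes and microglia, had 1.48 and its neighbour Ccr8 1.41, within 46.2 kb. Cxcr5 (44511787 to 44526444), the B cell receptor for Cxcl13, had 1.82 and Ccr4 1.73. Ackr2, which scavenges inflammatory CC chemokines, had 0.74 and lay 176 kb before the end of its run. Between Ackr2 and Ccr9 the profile went down to -0.79 and up to 1.27, so these receptor genes belong to different runs.

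**Figure D3:**
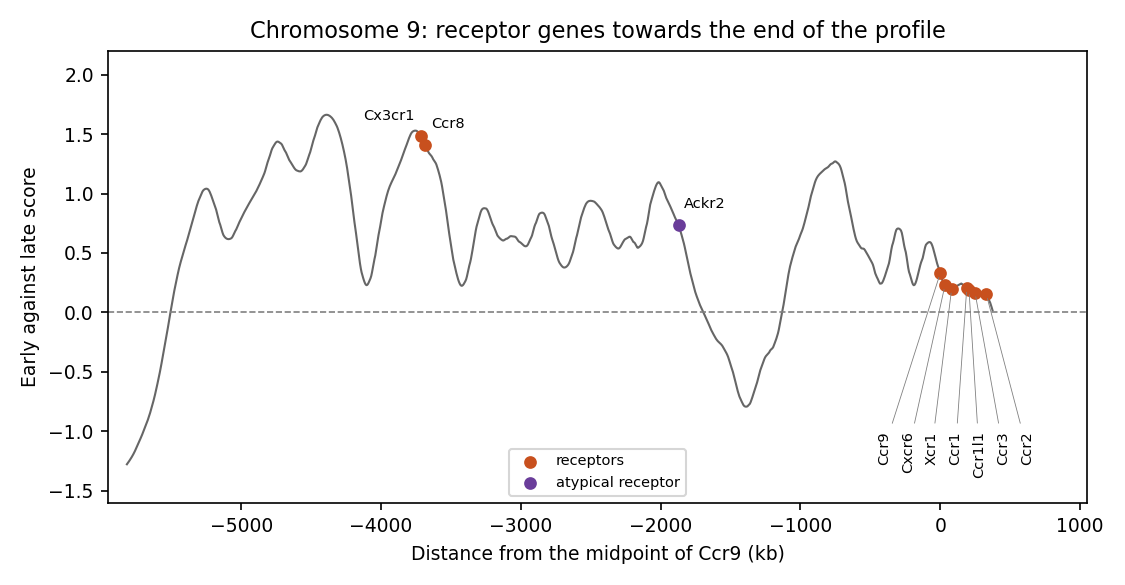
Early against late score (vertical axis) along the last part of chromosome 9, against distance in kb from the midpoint of Ccr9. Points are receptor genes at their midpoints. The 7 genes from Ccr9 to Ccr2 lie between 0.15 and 0.33 near the end of the profile, while Cx3cr1 and Ccr8 lie at 1.48 and 1.41 and Ackr2 at 0.74.

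Receptor genes elsewhere were early too, apart from Cxcr4, Ackr3 and Ackr1 on chromosome 1. Ccr7, the receptor for Ccl19 and Ccl21, had 1.85 and Ccr10, a receptor of skin and mucosal lymphocytes, had 1.77, both on chromosome 11 in regions with 45 and 47 other protein-coding genes within 500 kb. The neutrophil receptor genes Cxcr2 (1.45) and Cxcr1 (1.41) are neighbours on chromosome 1. Cxcr3, a receptor of activated T cells, had 1.01 on chromosome X. Ccr6, the receptor for Ccl20, had 0.49 in an early run of 0.351 Mb, with -0.48 and -0.14 at 300 kb on its lower and upper side. Ccr6 and Xcl1 therefore sat in short runs of opposite sign whose lengths were close to the smoothing width. The 4 atypical receptor genes were spread over the range: Ackr4, a scavenger of Ccl19, Ccl21 and Ccl25, had 1.45, Ackr2 0.74, Ackr3 -0.30 and Ackr1, a blood cell and vessel receptor that binds many chemokines, -0.61.

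Ligand and receptor genes that work together were set side by side in 28 known combinations, 26 of them with values for both genes. In 11 both genes were above 0 and in 2, Cxcl12 with Cxcr4 and with Ackr3, both were below. In 13 the ligand gene was below and the receptor gene above 0, and in none (0 of 26) was it the other way round. The only listed receptor genes below 0 were Cxcr4 and Ackr3, both combined with Cxcl12 alone. The list therefore left no room for the reverse case, and Ackr1 (-0.61) was in no combination. The median difference, ligand minus receptor, was -1.18, with the ligand gene lower in 21 of 26. Combinations with a member that is not reported here are left out, which changes this share, so it describes these 26 only. These combinations are not independent, because the late ligand clusters supply most of the low ligand values and several ligands share a receptor. The widest differences were those of Cxcl5 (-2.74) and Cxcl3 (-2.68) from Cxcr2, and Cxcl13 differed from Cxcr5 by -2.56. Ccl8 and Ccl1 differed from Ccr8 by -2.51 and -2.48. The closest were Cx3cl1 and Cx3cr1, at a difference of -0.063. The widest differences in the other direction were found for Cxcl16 and Cxcr6 (1.40), Ccl24 and Ccr3 (1.37) and Ccl25 and Ccr9 (1.17), all with receptor genes of the chromosome 9 cluster.

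**Figure D4:**
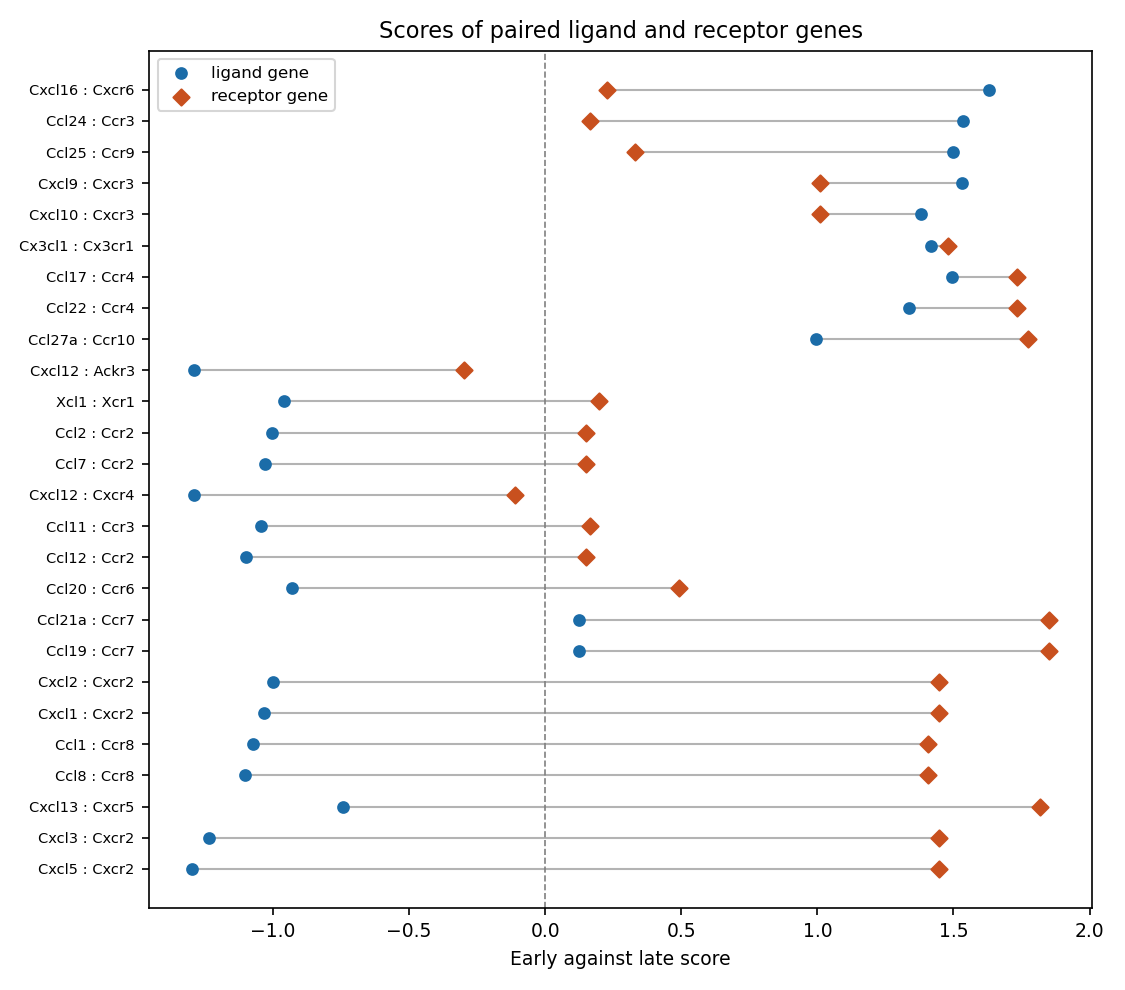
Early against late score (horizontal axis) of the ligand gene (circle) and the receptor gene (diamond) in each of 26 combinations, ordered by the difference of ligand minus receptor. Cxcl16 with Cxcr6 is at the top with 1.40 and Cxcl5 with Cxcr2 at the bottom with -2.74. The only receptor genes below 0, Cxcr4 and Ackr3, are joined to Cxcl12 alone.

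Ligands induced in inflammation and ligands made constantly by tissues both had members on each side of 0. Of 15 inflammatory ligand genes with a value 10 were below 0, with a median of -1.01 (-1.10 to 0.59), and of 7 homeostatic ones 2 were below 0, Cxcl12 and Cxcl13, with a median of 0.12 (-1.29 to 1.498). The homeostatic median is the uncertain value shared by Ccl19 and Ccl21a. Among protein-coding genes 26.5% were below 0. Of the 10 inflammatory genes below 0, 5 lay in the late cluster of chromosome 11 and 4 in that of chromosome 5, so the count rests largely on 2 places, with Ccl20 as the remaining one. The early inflammatory genes were Cxcl9, Cxcl10, Ccl5, Ccl3 and Ccl4. Many ligand genes were in neither list, among them Ccl24 (1.54), Ccl26 (1.58), Ccl1 (-1.07) and Cxcl15 (-1.21). The eotaxin gene Ccl11 was listed as inflammatory while the eotaxin genes Ccl24 and Ccl26 were not, so these counts depend on the lists.

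Genes that act with chemokines lay above 0 in most cases, as did 73.5% of all protein-coding genes, whose median was 1.02. Of 32 genes of signalling below the receptors 27 were above 0, with a median of 1.32. The inhibitory G protein genes Gnai2 and Gnai3 had 1.41 and 1.58, the beta-arrestin gene Arrb2 1.63, and Pik3cd, a leukocyte lipid kinase gene, 1.82. Below 0 were Rgs1 (-1.40), which dampens the signal, Gnai1 (-1.11), the leukocyte kinase gene Pik3cg (-0.95) and the migration genes Dock2 (-0.85) and Elmo1 (-0.49). All 9 NF-kB genes were above 0 (median 1.495), from Rel at 1.04 to the inhibitor gene Nfkbia at 1.81. Of 12 genes of chemokine release, trimming and presentation 11 were above 0 (median 1.05), among them the sheddase gene Adam17 (1.36) and Dpp4 (0.063), which trims chemokines. The protease gene Mmp2 was at -0.20. Ccrl2, a receptor-like relative outside the naming rule, had 1.69.

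Other cytokine families can be set beside the chemokine family. Of 107 interleukin, interferon and related receptor genes, chosen by symbol, 73 (68.2%) were above 0, with a median of 0.57 (0.18 to 0.83). Of 41 genes whose symbols start with Tnf 32 (78.0%) were above 0, with a median of 1.33 (0.99 to 1.53). This choice by symbol stands in for the Tnf superfamily and need not match its members. The chemokine family had 67.2% above 0 and a median of 0.41, and all protein-coding genes had 73.5% and 1.02. The shares of all 3 gene sets thus lay near that of protein-coding genes, the Tnf median was above the other medians, and no test of a difference was possible.

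Members above 0 had more genes around them than members below 0. The 39 members above 0 had a median of 19 other protein-coding genes within 500 kb (6 to 47) and the 19 below 0 a median of 7 (1 to 24). Over all protein-coding genes the medians were 17 above 0 and 9 below. Among the exceptions were Ackr4, early with only 6 genes around it, and, below 0, Ccl21d with 24, Ackr1 with 18 and Cxcl5, Cxcl3, Cxcl1 and Cxcl2 with 16 each. CG dinucleotides in the 250 bases before the gene start did not follow the same order. Among members with a promoter entry the median was 3 in 29 above 0 and 5 in 15 below, and over all protein-coding promoters it was 13 above 0 and 3 below. Only 3 of the 44 member promoters (6.82%) held 15 or more CG, those of Ccl25 (45), Cxcr4 (19) and Cxcl14 (16), against 37.6% of all protein-coding promoters. Cxcl12 held 14 at -1.29 and Cx3cl1 14 at 1.42, so promoters of equal CG number stood on opposite sides of 0.

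**Figure D5:**
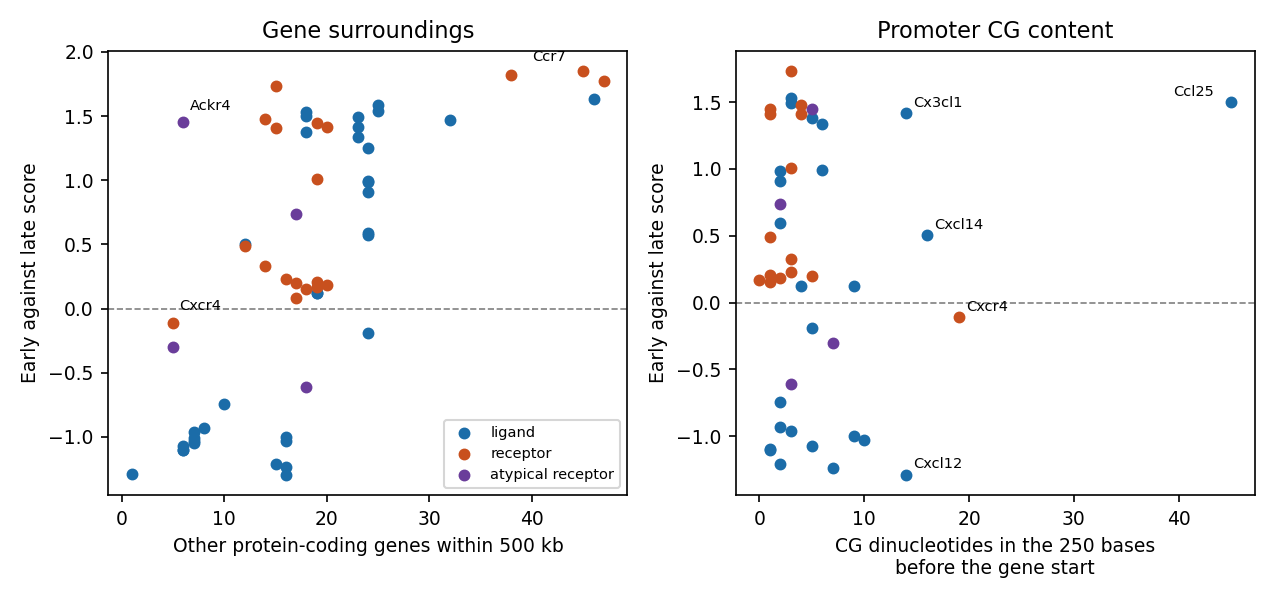
Early against late score (vertical axes) of chemokine and receptor genes against the number of other protein-coding genes within 500 kb (left, 58 genes) and the number of CG dinucleotides in the 250 bases before the gene start (right, 44 genes). Colours give the role. Cxcl12 has 1 gene around it and lies at -1.29, and on the right Cxcl12 and Cx3cl1 have 14 CG each at -1.29 and 1.42.

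The scores were little affected by the point of the gene that was read. The nearest position was a median of 1.77 kb from the midpoint and within 5 kb for 55 of 58 genes, and 57 distinct positions served the 58 genes. No gene (0 of 58) had ends of different sign, and the ends differed by 0.14 at most. Small differences were built in, because the median member was 5.16 kb long and the score was smoothed over 300 kb. They are no check of the scores. The 58 genes fell into 19 early and 9 late runs of at least 300 kb, with 37 genes in early runs, 18 in late runs and 3, Ccl21d, Ccl19 and Ccl21a, in none. Since 39 of the 58 had another member within 300 kb, the number of independent places is much smaller than the number of genes.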

How the data were processed

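BrdU-labelled DNA from 1 early and 1 late S phase fraction of mouse embryonic stem cells was sequenced. The submitters' processing notes name Bowtie2 and mm10. The authors deposited 1 score per position, made from both libraries and smoothed over 300 kb according to the name of the table. How reads were counted and scaled, the log base, the zero point and the depth are not stated in the sources used here. Smoothing joins neighbouring genes, and amplification from 10000 cells may add uneven coverage, which 1 library per fraction cannot measure.

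The table held 384798 positions, of which 4 had no value, and 0 further columns of per-sample values went unused. From it, gene scores, runs of 1 sign (at least 300 kb, ended by gaps over 300 kb), counts and medians were computed with Python 3.11.15, pandas 2.3.3 and numpy 2.4.6, and intervals with scipy 1.17.1. The code was checked on a simulated profile of alternating runs at fixed scores, without noise or smoothing. That check does not cover scores near 0 or poorly covered regions. Genes came from RefSeq GRCm38.p6, leaving out 348 scaffold genes listed under chromosome names. Of 62 members 47 had a promoter entry, and the first entry per gene was used. Any member could be named, but 1 is not reported here, and ligand and receptor combinations with it were left out of the counts. Other genes named were in fixed lists of related genes, relatives outside the naming rule, or neighbours of clusters, and Cxcl11, Cct6b and the growth factor genes beside Cxcl2 were added after their values were seen. Members and lists were chosen with earlier results of these data known. With 1 library per fraction nothing was tested and there are no p-values. Protein sequence features were not analysed here. Alternatives changed the zero point, the point of the gene, the distance, the joining of neighbours, the chromosomes, the threshold and the minimum run.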

Additional observations from a re-analysis of the deposited data

How the results depend on the processing

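Of 44 alternative values of the counts, medians and numbers of runs, 40 stayed close to the reported ones, and 0 reversed. Close meant counts within 1.5 times and medians within their 95% interval over genes. These limits are wide, and no increase in the count of all members or of receptors could be large enough to fall outside them. With 28 of 58 (48.3%) above 0.5, against 39 (67.2%) above 0, the count was still called close. The share of all protein-coding genes above 0.5 was not computed, so 48.3% is not read as low or high. The 40 are therefore no measure of robustness. With members within 1 Mb joined as 1 unit, 20 of 29 units were above 0 in all, 9 of 15 for ligands and 11 of 14 for receptors, against 39, 19 and 20 genes, because fewer units are counted. Medians moved more: with joined units they were 0.86 in all, 0.50 for ligands and 1.22 for receptors, against 0.41, 0.12 and 0.49 over genes. Without the chromosome 9 cluster, an alternative chosen after seeing the data, 12 of 15 receptor genes were above 0, and their median was 1.41, against 0.49 with it. The family's median was then 0.67. When zero was set to the autosomal median, 42 of 58 members were above it (78.5% of all protein-coding genes were), and 3 members changed side, Ackr3, Cxcr4 and Ccl21d. The medians then were 0.71 in all, 0.43 for ligands and 0.80 for receptors, by construction of the shift. With the transcription start in place of the midpoint, also added after seeing the data, 29 of 44 were above 0, with a median of 0.22. Members without a promoter entry dropped out, among them Ccr7, Cxcr5 and Ccr10 above 0 and Cxcl5 and Ccl2 below. This median is thus over a smaller set of genes than 0.41. No paired analysis was possible because there was 1 library per fraction and no test. Read depth is unknown, so what depth limits cannot be stated.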
